A study of Mus musculus with 2 samples.

Results

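The genes described here build the C-zone and the M-band of the muscle thick filament. They comprise the myosin-binding protein C genes Mybpc1, Mybpc2 and Mybpc3, the related Mybph, and the myomesin genes Myom1, Myom2 and Myom3. They were chosen by name among the annotated genes, with every transcript model of each gene kept, whatever its class. Of the 7 genes, 6 had at least 1 read, among 14704 annotated genes with a read. They held 426 of 67968 transcript models of annotated genes in replicate 1 and 258 of 42482 in replicate 2. Of these models, 210 in replicate 1 and 137 in replicate 2 rested on 1 read each.

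The libraries came from gastrocnemius, the large calf muscle, of male B6CASTF1/J mice at 14 days of age. Both were long-read RNA libraries made from 2 µg of RNA, in which 1 read can follow a messenger RNA from its 3′ end towards its start. There was 1 group with 2 biological replicates, so no contrast between conditions exists, and every comparison of replicate 1 with replicate 2 compares these libraries only. B6CASTF1/J mice are hybrids of a C57BL/6J and a CAST/EiJ parent, and the models do not separate the parental alleles. Both libraries carry the same donor identifier and biosample names that speak of 3 males. Whether animals were pooled is not given in the sources used here, so differences between these libraries may be technical. The p-values below set 1 library against 1 library and cover counting error only, with no estimate of the spread between animals or libraries.

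Myosin-binding protein C molecules sit in regular stripes in the C-zone of each sarcomere, where they bind the thick filament and reach towards actin to tune cross-bridge cycling. Mybpc1 encodes the slow skeletal form, Mybpc2 the fast skeletal form and Mybpc3 the cardiac form, and Mybph encodes myosin-binding protein H, a shorter relative. Myomesins are elastic crosslinkers that tie neighbouring thick filaments together at the M-band and bind titin there: Myom1 encodes myomesin, Myom2 encodes M-protein, typical of fast fibres, and Myom3 encodes myomesin-3.

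Replicate 1 had 1094607 reads and replicate 2 had 626289 after ERCC spike-in reads were set aside. A count of 0 therefore allows up to 3 reads, or 2.74 CPM (counts per 1000000 reads) in replicate 1 and 4.79 CPM in replicate 2. All 7 markers of the skeletal muscle fibre were detected, with summed levels of 283500 CPM in replicate 1 and 250100 CPM in replicate 2. Of 8 cardiac markers 2 had a read, Myh6 with 3 reads in replicate 1 and 1 in replicate 2 and Tnni3 with 0 and 1, and the other 6 (Nppa, Nppb, Myl7, Ryr2, Mybphl and Mybpc3) were at 0 in both libraries. Fibroblast markers, 4 of 4 detected, summed to 6908 CPM in replicate 1 and 2716 CPM in replicate 2. The 3 Schwann cell markers summed to 299 CPM in replicate 1 and 532 CPM in replicate 2, the 3 endothelial markers to 258.5 and 136 CPM, and the 3 smooth muscle markers to 280.4 and 217 CPM. Intervals and limits below cover counting error only, since the reads carry no molecular identifiers.

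Fast myosin-binding protein C dominated the genes described. Mybpc2 (ENSMUSG00000038670.11, chr7:44501699-44524656, minus strand, mm10) had 7547 reads in replicate 1 and 2836 in replicate 2, or 6895 and 4528 CPM. Its rank among all genes by reads was 14 in replicate 1 and 20 in replicate 2. The mean level was 5711 ± 1673 CPM (SD, n = 2 libraries). Both libraries were far above every other gene described.

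Slow Mybpc1 (ENSMUSG00000020061.17, chr10:88518279-88605152, minus strand) had 1218 reads in replicate 1 and 377 in replicate 2, or 1113 and 602 CPM, with a mean of 857 ± 361 CPM. Cardiac Mybpc3 (ENSMUSG00000002100.15, chr2:91118144-91136516, plus strand) had no read in either library, which allows a share of up to 0.0342% of myosin-binding protein C reads in replicate 1 and 0.0934% in replicate 2. Mybph (ENSMUSG00000042451.12, chr1:134193448-134201232, plus strand) had 575 reads in replicate 1 and 320 in replicate 2, or 525 and 511 CPM, with a mean of 518 ± 10.2 CPM. The Mybph libraries lay close together on this scale.

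Among the myomesins, Myom2 (ENSMUSG00000031461.4, chr8:15057653-15133541, plus strand) had 888 reads in replicate 1 and 476 in replicate 2, or 811 and 760 CPM, with a mean of 786 ± 36.2 CPM. Myom1 (ENSMUSG00000024049.15, chr17:71002633-71126856, plus strand) had 546 reads in replicate 1 and 265 in replicate 2, or 499 and 423 CPM, with a mean of 461 ± 53.5 CPM. Myom3 (ENSMUSG00000037139.15, chr4:135759715-135815564, plus strand) had 5 reads in replicate 1 and 10 in replicate 2, or 4.57 and 16.0 CPM, with a mean of 10.3 ± 8.06 CPM. By CPM the order from high to low was Mybpc2, Mybpc1, Myom2, Mybph, Myom1 and Myom3, and the libraries of Mybpc1 and Myom2 overlapped while those of the other neighbours did not. This order holds for all models together. With annotated models alone Mybpc1 had a mean of 145 CPM, below Myom2 (398), Mybph (175) and Myom1 (157). With complete models alone the means were 758 CPM for Mybpc1, 436 for Myom2, 283 for Mybph and 168 for Myom1.

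**Figure D1:**
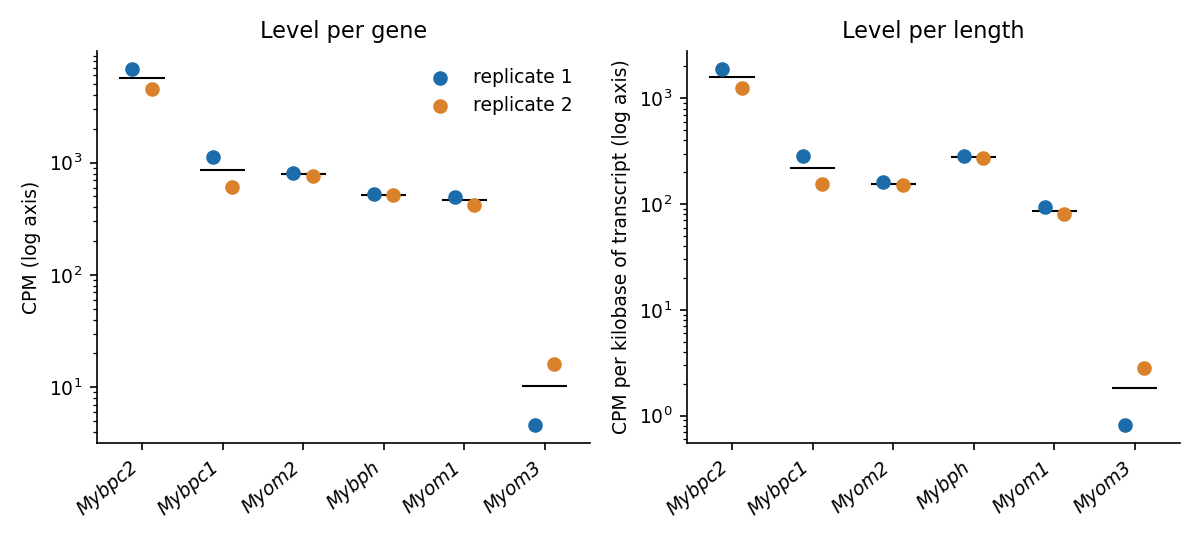
Level of each gene with a read in replicate 1 and replicate 2, as CPM (left) and as CPM per kilobase of transcript (right), on log axes, with the mean of the 2 libraries as a line. Mybpc2 is highest in both panels at a mean of 5711 CPM, Myom3 is lowest at 10.3 CPM, and per kilobase Mybph lies within the range of Mybpc1.

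Levels between genes were then compared per length, with the mean length of complete models as the length. Mybpc2 averaged 1583 ± 464 CPM per kilobase, Mybph 279 ± 5.46, Mybpc1 221 ± 93.2, Myom2 156 ± 7.19, Myom1 87.0 ± 10.1 and Myom3 1.82 ± 1.43 (SD, n = 2 libraries). Mybph thus stood next to Mybpc2 on this scale, and its libraries of 282 CPM per kilobase in replicate 1 and 275 in replicate 2 fell inside the range of Mybpc1, at 287 and 155. With complete models alone Mybph averaged 152 ± 31.6 CPM per kilobase and Mybpc1 196 ± 84.9, so the order of these genes depends on partial models. Levels per kilobase were also set against 100 for the sum of 6 skeletal myosin heavy chain genes. On that scale Mybpc1 and Mybpc2 together made 61.0 in replicate 1 and 61.0 in replicate 2. Since a read here follows a single messenger RNA, division by length raises genes with shorter transcripts. These values are therefore not ratios of transcripts. The same ratio was 7.10 in replicate 1 and 10.1 in replicate 2 for the 3 myomesins, and 7.84 and 11.9 for Mybph. Mybpc2 alone made 53.0 in replicate 1 and 54.3 in replicate 2, and Mybpc1 alone 7.97 and 6.73, so the like sums are mostly Mybpc2. The M-band genes and Mybph were lower against the myosin genes in replicate 1. These ratios were not tested.

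Between the libraries, 2 of the 6 genes tested differed in level, against 13.5% of all 7955 genes tested. Calls rise with read count: with a minimum of 50 reads in all, 33.2% of 3271 genes were called. Of the 6 genes only Myom3 is below that minimum, so the 2 calls do not set these genes apart. The next values come from the 7955 genes, by two-sided Fisher's exact test of reads of the gene and all other reads, Benjamini-Hochberg adjusted. Mybpc1 was higher in replicate 1 by 1.85 times (95% interval 1.65 to 2.08, adjusted p 8.19e-26). Mybpc2 was higher in replicate 1 by 1.52 times (95% interval 1.46 to 1.59, adjusted p 7.88e-84). With totals of genes of like length both kept their direction at smaller sizes, with log2 ratios by exact test of 0.41 for Mybpc1 (adjusted p 2.12e-05) and 0.13 for Mybpc2 (adjusted p 5.09e-05), against 0.89 and 0.61 with library totals. Fewer cells of a type and less RNA per cell cannot be told apart in bulk tissue. The fibroblast marker sum was also higher in replicate 1, as given above. Of the 7 skeletal fibre markers, 4 were higher in replicate 1 and 3 higher in replicate 2 by the same exact test. All 3 Schwann cell markers were higher in replicate 2. The part of cell make-up in these differences was not tested.

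The ratio of replicate 1 over replicate 2 was 1.18 for Myom1 (adjusted p 0.143), 1.07 for Myom2 (adjusted p 0.563), 1.03 for Mybph (adjusted p 0.919) and 0.286 for Myom3 (adjusted p 0.140) by the same exact test. The median log2 ratio was 0.17 over the 6 genes and 0.26 over all 7923 genes with reads in both libraries. TMM scaling moved the median of all genes by -0.19 and totals of genes of like length by -0.18 on the log2 scale. These scalings turned the sign for Mybph and Myom2, and totals of like length also for Myom1. With totals of like length, Myom2 was lower in replicate 1 by exact test (log2 -0.35, adjusted p 0.000575), and Myom3 likewise (log2 -2.25, adjusted p 0.0475). With complete models alone Myom2 was higher in replicate 1 by exact test (log2 0.61, adjusted p 1.84e-06), as were Myom1 (log2 0.77, adjusted p 0.000618) and Mybph (log2 0.43, adjusted p 0.0228). No direction can therefore be given for Myom1, Myom2 and Mybph.

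Mybpc1 had 6 exons included in 5% to 95% of informative reads, against 3 in Mybpc2 and 0 in the other genes. Among these, a 1435-base form of Mybpc1 and the 3 exons of Mybpc2 rested on few informative reads, as defined below. The leading model of Mybpc1, with 31 exons, is not in the GENCODE M21 annotation. It held 549 reads in replicate 1 and 126 in replicate 2, or 45.1% and 33.4% of the gene's reads. The annotated transcript ENSMUST00000121629.7, with 29 exons, held 168 reads in replicate 1 and 84 in replicate 2, or 13.8% and 22.3%. A further unannotated model of 32 exons held 125 reads in replicate 1 and 43 in replicate 2. Annotated models therefore took 15.5% of complete-model reads of Mybpc1 in replicate 1 and 25.8% in replicate 2. In the other genes with complete models in both libraries that share lay between 60.9% and 97.4%.

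These models differ in short exons. The annotated cassette exons of 42, 54 and 59 bases of Mybpc1 are shown with up to 12 neighbouring bases of the spliced transcript, because their inclusion or skipping makes the models that follow. Sequences are those of GENCODE M21 transcripts on mm10, 5′ to 3′ along the minus strand, with the cassette exon in capitals.
Mybpc1 42-base exon: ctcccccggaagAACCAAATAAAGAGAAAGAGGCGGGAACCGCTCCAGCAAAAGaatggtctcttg
Mybpc1 54-base exon: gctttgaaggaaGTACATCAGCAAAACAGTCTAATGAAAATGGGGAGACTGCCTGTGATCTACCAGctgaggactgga
Mybpc1 59-base exon: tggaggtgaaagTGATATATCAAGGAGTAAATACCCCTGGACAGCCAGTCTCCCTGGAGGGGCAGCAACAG

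The 42-base exon (chr10:88582007-88582048, in ENSMUST00000121629.7) and the 54-base exon (chr10:88537466-88537519, in ENSMUST00000156573.1) have lengths that are multiples of 3, which do not shift the reading frame. Whether the 54-base exon holds a stop codon in frame was not checked. The 59-base exon (chr10:88521277-88521335, in ENSMUST00000119185.7) lies just before a 43-base exon (chr10:88519901-88519943) that holds the stop codon, and it shifts the frame there. The ends of the coding sequence with and without it are shown with the stop codon in capitals.
Mybpc1 end with the 59-base exon: tctccctggaggggcagcaacagtcgTAG
Mybpc1 end without the 59-base exon: aactggaggtgaaagtcgtagcacagTAA
With the 59-base exon the stop follows 3 bases of the 43-base exon, as in ENSMUST00000119185.7 with 1127 codons up to the stop. Without it the stop follows 11 bases of the same exon, as in ENSMUST00000121629.7 with 1124 codons, and the positions of the stops are 8 bases apart. The 42-base exon is annotated in ENSMUST00000121629.7 and not in ENSMUST00000119185.7. The codon counts of these transcripts therefore do not give the effect of the 59-base exon alone.

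Exon inclusion was taken as a share of informative spliced reads, which hold exactly that exon or an intron that skips it whole. Reads with other exon boundaries at the position were left out. A further pair of cassette exons, of 39 bases (chr10:88575842-88575880) and 36 bases (chr10:88575129-88575164), overlap no annotated exon of Mybpc1 and lie 677 bases apart. The 39-base exon was in 867 of 1101 reads in replicate 1 and 218 of 331 in replicate 2, or 78.8% (95% Clopper-Pearson interval 76.2 to 81.1) and 65.9% (60.5 to 71.0). The 36-base exon was in 864 of 1103 reads in replicate 1 and 219 of 332 in replicate 2, or 78.3% (75.8 to 80.7) and 66.0% (60.6 to 71.1). Most Mybpc1 messages of the muscle thus held exons that the annotation lacks, in both libraries.

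The exons of 39 and 36 bases travelled together. Of reads that crossed both positions, 862 of 1103 in replicate 1 and 218 of 332 in replicate 2 held both, and 234 and 113 held neither. The 39-base exon came alone in 5 reads of replicate 1 and 0 of replicate 2, and the 36-base exon alone in 2 reads and 1 read. Their joint 75 bases keep the reading frame.

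Inclusion of the other exons was close in the libraries. The 42-base exon was in 90.0% of reads in replicate 1 and 89.5% in replicate 2, with a mean of 89.7% ± 0.396. The 59-base exon was in 185 of 1172 reads in replicate 1 and 63 of 366 in replicate 2, or 15.8% (95% interval 13.7 to 18.0) and 17.2% (13.5 to 21.5). The 54-base exon was in 5.25% of reads in replicate 1 and 6.52% in replicate 2. The 43-base exon with the stop codon was in 95.5% of reads in replicate 1 and 98.1% in replicate 2. The remaining variants were rare: a 1435-base form that joins the 59-base and 43-base exons through their intron had 3 reads in replicate 1 and 1 in replicate 2, and 3 variable exons of Mybpc2, of 138, 164 and 111 bases, each rested on at most 22 informative reads in replicate 1 and 13 in replicate 2.

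**Figure D2:**
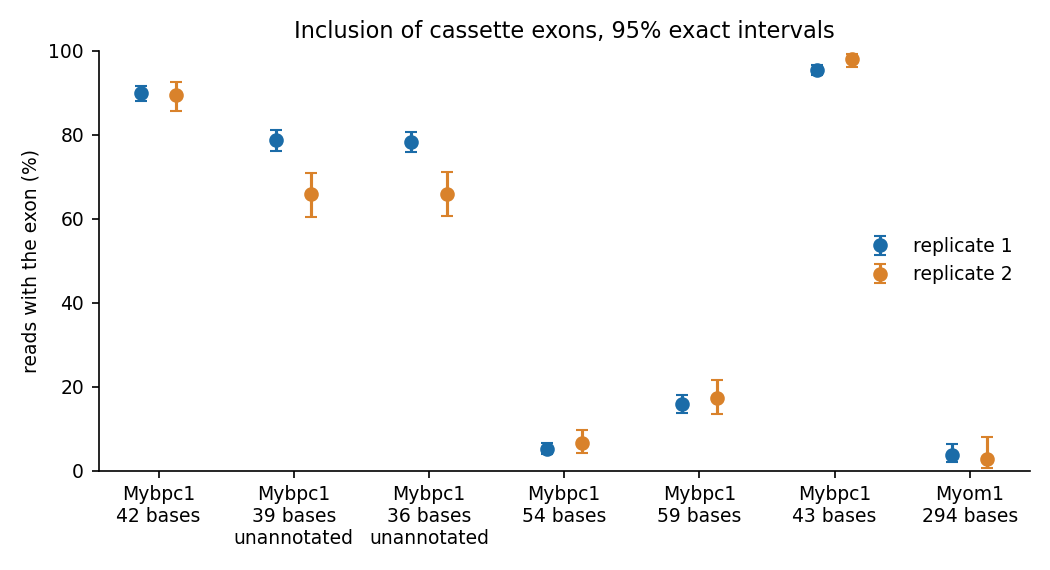
Inclusion of 6 cassette exons of Mybpc1, in the order of the transcript, and of the 294-base EH exon of Myom1, as the percent of informative reads in replicate 1 and replicate 2, with exact 95% intervals. The unannotated exons of 39 and 36 bases lie near 78% in replicate 1 and 66% in replicate 2 and their intervals do not overlap, while those of the other exons do.

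Of 101 exons of the genes described that entered the test of inclusion, 2 differed between the libraries, against 0.121% of all 4961 cassette exons tested (Fisher's exact test, two-sided, Benjamini-Hochberg adjusted). They were the 39-base exon (adjusted p 0.00445) and the 36-base exon (adjusted p 0.00822), each included more often in replicate 1. They are in the same reads, so they give 1 difference and not 2. The make-up of complete Mybpc1 models also differed (chi-square test, adjusted p 0.0162), the 1 gene called of 5 described genes tested, against 2.29% of all 961 genes tested. Mybpc2 (adjusted p 0.692), Mybph (1.0), Myom1 (0.813) and Myom2 (0.856) did not pass that test, but Myom2 did when models under 5 reads rather than 10 were pooled (chi-square test, adjusted p 0.00388).

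Reads that span all 6 cassette positions of Mybpc1 show which exons occur together. There were 1080 such reads in replicate 1 and 328 in replicate 2, and they held 22 combinations, 14 of them in both libraries. The exons of 42, 39, 36 and 43 bases, without those of 54 and 59 bases, made 51.5% of these reads in replicate 1 and 39.9% in replicate 2. The form with the 42-base and 43-base exons alone made 15.6% in replicate 1 and 26.5% in replicate 2. The form with 42, 39, 36, 59 and 43 bases made 11.9% in replicate 1 and 13.4% in replicate 2. No other combination reached 6% in either library, and the leading form was ahead of all others in both.

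The 59-base exon was not spread evenly over these forms. Among spanning reads with both the 39-base and 36-base exons, the 59-base exon was in 153 of 842 in replicate 1 and 52 of 214 in replicate 2, or 18.2% (95% interval 15.6 to 20.9) and 24.3% (18.7 to 30.6). Among those with neither, it was in 14 of 231 in replicate 1 and 3 of 113 in replicate 2, or 6.06% (3.35 to 9.96) and 2.65% (0.551 to 7.56). The intervals did not overlap within either library. The 42-base exon was in 92.4% of reads with the pair in replicate 1 and 92.1% in replicate 2, against 81.8% and 84.1% of reads with neither. These intervals overlapped in replicate 2 and not in replicate 1. The 43-base exon ran the other way, in 94.4% of reads with the pair in replicate 1 and 96.3% in replicate 2, against 98.7% and all 113 reads with neither, and its intervals too overlapped in replicate 2 and not in replicate 1. For the 54-base exon, at 6.41% with the pair in replicate 1 and 7.48% in replicate 2 against 2.16% and 5.31% with neither, the intervals overlapped in both.

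**Figure D3:**
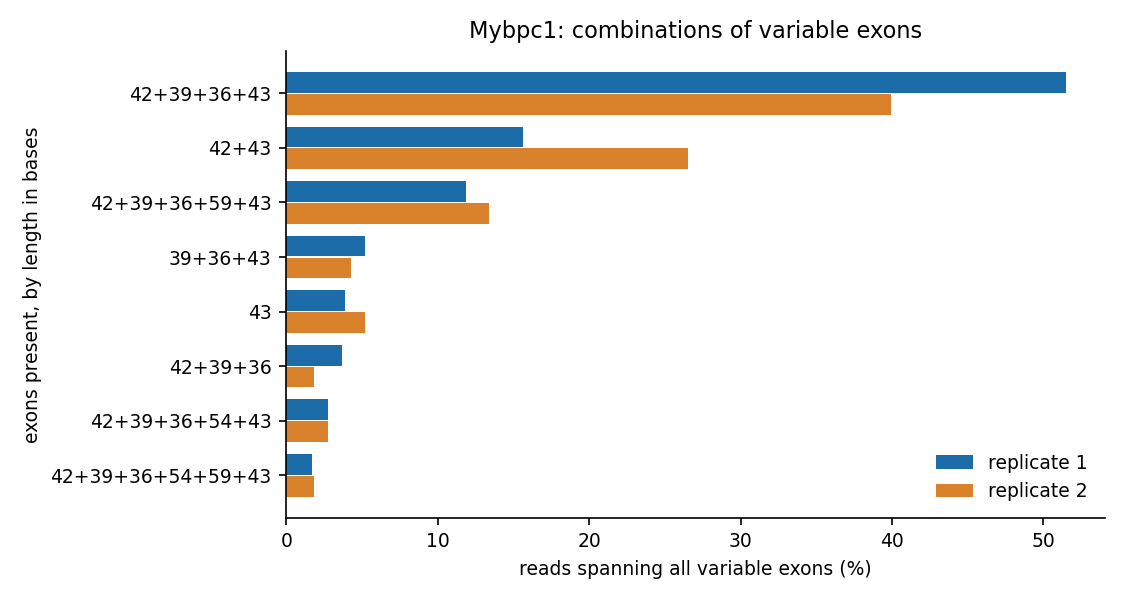
Share of the 8 most frequent combinations of Mybpc1 cassette exons among reads that span all 6 positions, in replicate 1 (1080 reads) and replicate 2 (328 reads). Each combination is named by the lengths in bases of the exons present, in the order of the transcript; the leading form makes 51.5% of reads in replicate 1 and 39.9% in replicate 2.

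Mybpc2 was uniform by comparison. Its 28-exon annotated model ENSMUST00000165208.3 held 6015 of 7547 reads in replicate 1 and 2165 of 2836 in replicate 2, or 79.7% and 76.3%, and annotated models made 96.3% and 95.1% of its complete-model reads. Most of the remainder were partial models that began inside the transcript and ran to its end. Of 1279 such reads in replicate 1 and 557 in replicate 2 that share the annotated introns, 215 and 47 began in exon 12, and 111 and 143 began in exon 26. Exon 12 was the commonest of these starts in replicate 1 and exon 26 in replicate 2.

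Mybph messages ended in alternative forms that leave the protein unchanged. The last intron follows the stop codon by 36 bases, and its reads used acceptors 3 bases apart, so the choice lies in the 3′ untranslated region. The site, read from a transcript that keeps this intron (ENSMUST00000191577.1), is shown at chr1:134200933-134200956, plus strand, with the 3 bases that the upstream acceptor adds in capitals.
Mybph last-intron acceptors: tatctcttctagCAGcttggtcac
The upstream acceptor, which is not in an annotated spliced transcript, was used by 177 of 526 spliced reads in replicate 1 and 67 of 239 in replicate 2, or 33.7% (95% interval 29.6 to 37.9) and 28.0% (22.4 to 34.2). The intervals overlapped, and the intron was retained in 4 spliced reads of replicate 1 and 0 of replicate 2. A further 40 reads of replicate 1 and 0 of replicate 2 were on genomic models of 1 exon whose span crosses it. Counts are given per model, so whether each of these reads crossed the intron is not known. The annotated ENSMUST00000038445.12 led with 223 reads in replicate 1 and 92 in replicate 2, and the complete model with the upstream acceptor held 111 and 47.

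Complete myomesin models were mostly of 1 spliced form. ENSMUST00000179759.2, with 37 exons, held 203 reads in replicate 1 and 74 in replicate 2, or 87.5% and 94.9% of complete-model reads of Myom1 and 37.2% and 27.9% of all its reads. It lacks the EH exon (chr17:71082203-71082496, plus strand, 294 bases), named after the embryonic heart, which adds a segment to the middle of the protein and is annotated in ENSMUST00000073211.12. The exon is shown in full because its inclusion defines the EH form.
Myom1 EH exon: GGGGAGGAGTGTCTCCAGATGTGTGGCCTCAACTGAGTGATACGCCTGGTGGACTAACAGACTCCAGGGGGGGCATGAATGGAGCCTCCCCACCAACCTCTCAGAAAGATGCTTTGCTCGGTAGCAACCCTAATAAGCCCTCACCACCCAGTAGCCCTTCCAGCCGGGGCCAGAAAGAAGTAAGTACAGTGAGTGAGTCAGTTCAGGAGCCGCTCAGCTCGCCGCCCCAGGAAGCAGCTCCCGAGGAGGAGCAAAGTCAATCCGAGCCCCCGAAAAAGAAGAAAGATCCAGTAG
It was in 13 of 349 reads in replicate 1 and 3 of 107 in replicate 2, or 3.72% (95% interval 2.00 to 6.29) and 2.80% (0.582 to 7.98). The EH form was thus present at a low share in both libraries, and the difference did not pass Fisher's exact test (adjusted p 1.0). The coding sequence has 1569 codons in ENSMUST00000179759.2 and 1667 in ENSMUST00000073211.12.

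Myom2 reads followed ENSMUST00000033842.3, with 37 exons, in 533 reads of replicate 1 and 194 of replicate 2, or 60.0% and 40.8% of all its reads and 92.5% and 89.8% of its complete-model reads. Of reads that joined an exon to the second exon of that transcript, 561 of 589 in replicate 1 and 204 of 217 in replicate 2 used its annotated first exon, or 95.3% and 94.0%. Another 5 exons before the second exon shared the remaining reads, each with at most 10 reads in replicate 1 and 7 in replicate 2. No cassette exon of Myom1 or Myom2 had an inclusion between 5% and 95%, although 6 exons of Myom1 and 42 of Myom2 were tested. For Myom3 the 5 reads of replicate 1 and 6 of the 10 of replicate 2 were partial, and 3 reads of replicate 2 matched the complete ENSMUST00000105854.1.

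How far reads reached along each message bears on these shares. A complete model here is an annotated one, a new combination of known splice sites or one with a new splice site. Partial models and models classed as genomic are not complete. A model classed as genomic can lie within a single exon, as in Myom2 below. Complete models held 89.0% of Mybpc1 reads in replicate 1 and 87.3% in replicate 2, and 82.8% and 80.3% of Mybpc2 reads. The share was 61.7% in replicate 1 and 47.2% in replicate 2 for Mybph, 64.9% and 45.4% for Myom2, and 42.5% and 29.4% for Myom1. Over the 495 genes with transcripts of at least 3500 bases and 20 reads in each library, the median share was 83.9% in replicate 1 and 78.7% in replicate 2. Mybpc1 and Mybpc2 thus lay near or above that median, and Myom1 and Myom2 below it in both libraries. Mybph, whose transcript is shorter, lay below the median of all 2767 genes with 20 reads in each library, at 93.2% in replicate 1 and 90.6% in replicate 2.

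Of the 5 genes tested, 4 had a higher complete-model share in replicate 1, against 9.9% of all 2767 genes called in that direction (Fisher's exact test, Benjamini-Hochberg adjusted). The adjusted p by that test was 2.53e-10 for Myom2, 0.000616 for Mybph, 0.00571 for Myom1 and 0.0329 for Mybpc2. Here too calls rise with read count. Of the 1248 genes with at least 50 reads in each library, as all 5 have, 19.1% were called in either direction. The Myom2 difference rests on genomic-class models. Without them the share was 70.8% in replicate 1 and 70.6% in replicate 2 (Fisher's exact test, adjusted p 1.0), while the other 3 genes still passed. In replicate 2 all 170 of these Myom2 reads were within the 897-base last exon. Last-exon reads of Myom1 (97 in replicate 1 and 139 in replicate 2) and Mybph (78 in replicate 2) are classed as partial and stay in. Leaving out the class therefore treats reads of the 3′ end unlike between these genes. On that basis 6.79% of all 2562 genes tested were called in either direction. With all classes kept, Mybpc1 did not pass Fisher's exact test (adjusted p 0.845). Replicate 1 was also the deeper library, and the share over all annotated genes was 87.5% in replicate 1 and 83.8% in replicate 2.

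**Figure D4:**
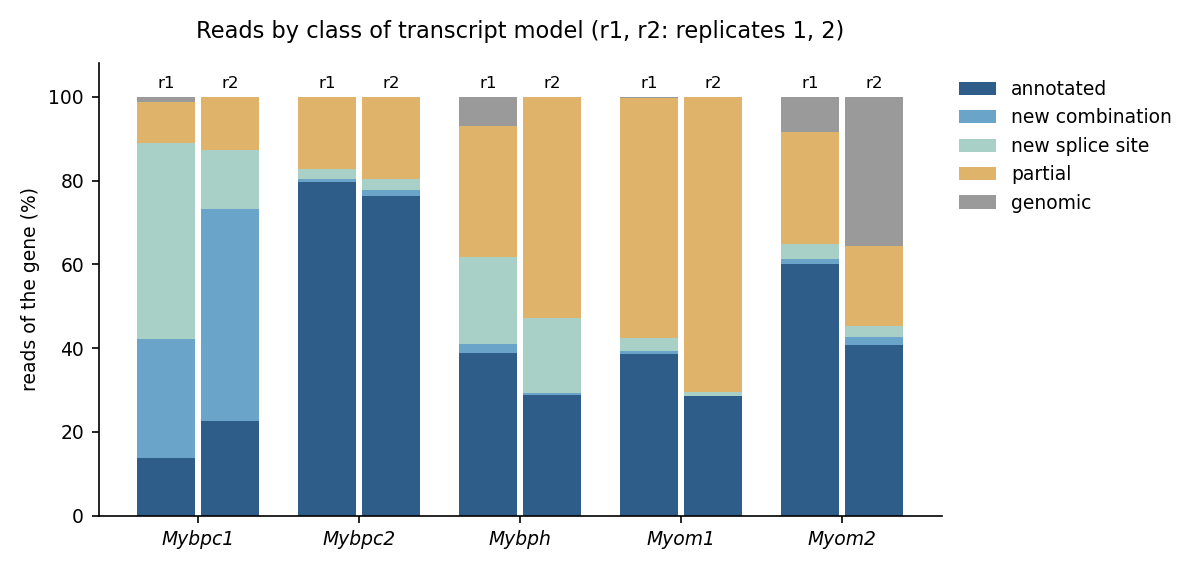
Reads of 5 genes by class of transcript model, as percent of the gene's reads, with replicate 1 left of replicate 2 in each pair. Most Mybpc2 reads are on annotated models (79.7% in replicate 1 and 76.3% in replicate 2), and Mybpc1 reads are mostly on unannotated spliced models. The leading Mybpc1 model is classed as a new splice site in replicate 1 and a new combination in replicate 2. These 2 classes of Mybpc1 therefore cannot be compared between the libraries. Myom2 reads on genomic models make 8.33% in replicate 1 and 35.7% in replicate 2.

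The loss of length had a different shape in each gene. The last exon of Myom1 was reached by 97.4% of its reads in replicate 1 and 99.2% in replicate 2, the exon before it by 79.7% and 46.8%, and the first exon by 43.4% and 30.2%. That step came from a partial model of 1 exon within the 781-base last exon, which held 97 reads in replicate 1 and 139 in replicate 2, or 17.8% (95% interval 14.7 to 21.2) and 52.5% (46.3 to 58.6). In Myom2 genomic models of 1 exon near the 3′ end, of 1462 bases in replicate 1 and 676 in replicate 2, held 74 reads and 170 reads. In Mybph a model of 1 exon of 288 bases at the 3′ end held 0 reads in replicate 1 and 78 in replicate 2, and a genomic model of 3364 bases held 40 and 0. Reads confined to the 3′ end of these genes were therefore the larger share in replicate 2. Mybpc1 showed no such step: its first exon was reached by 90.6% of reads in replicate 1 and 88.1% in replicate 2.

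**Figure D5:**
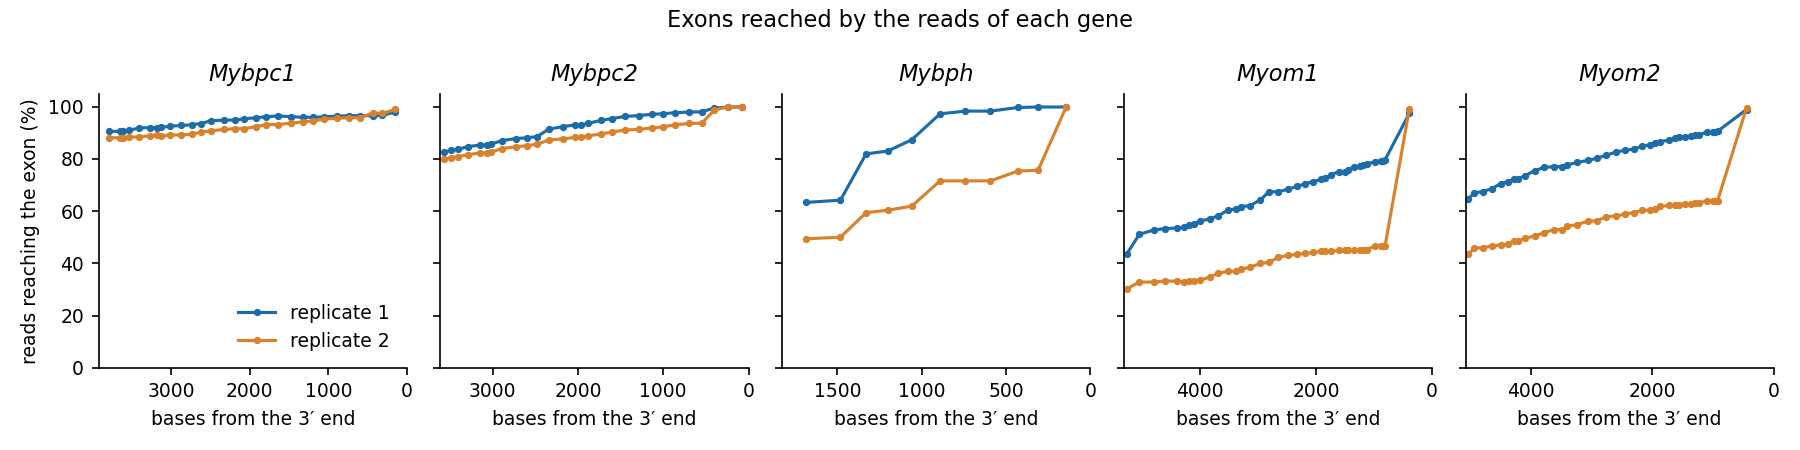
Share of each gene's reads whose model overlaps each exon of a leading annotated transcript, against the distance of the exon's middle from the 3′ end in bases, in replicate 1 and replicate 2. Reads of Mybpc1 and Mybpc2 reach the first exon in 79.8% or more, while those of Myom1 and Myom2 drop between the last exon and the one before it, more in replicate 2.

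The inclusion of the Mybpc1 exons did not rest on partial models: with complete models alone the 39-base exon was in 78.6% of reads in replicate 1 and 65.4% in replicate 2. On the same basis the 59-base exon was in 15.6% of reads in replicate 1 and 17.1% in replicate 2. When partial spliced models were joined to the complete ones by their introns, the make-up of 3 of the 5 genes differed between the libraries, against 7.12% of all 1039 genes. These were Mybpc2 (adjusted p 6.54e-23), Mybpc1 (0.00724) and Mybph (0.00793), by chi-square test. In Mybpc2 the partial models were those whose starts are given above.

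Lists of genes tied to the thick filament and the M-band gave the surroundings. The place of each listed gene in the sarcomere was not checked here. All 12 M-band partners listed were detected, and the highest per kilobase were Ckm, the muscle creatine kinase, with 24900 ± 783 CPM per kilobase, the fast myosin heavy chain Myh4 with 2331 ± 630, Smpx, a small muscle protein, with 281 ± 45.3, and Ank1, an ankyrin of the sarcoplasmic reticulum and membrane, with 208 ± 5.94. Between the libraries 5 of them were higher in replicate 1 and 2 higher in replicate 2, against 6.89% and 6.56% of all genes. These shares are over genes with at least 10 reads, and the share called rises with read count, as given above. Of 12 thick filament genes 11 were detected, Mybphl being at 0, and the light chains Mylpf and Myl1 led with 34970 ± 8991 and 18850 ± 4920 CPM per kilobase. Of these genes 4 were higher in replicate 1 and 2 higher in replicate 2. The lists overlap: Myh4 is also counted among the M-band partners, and Trim55 both there and among the ubiquitin ligases below. All 10 myosin chaperones and M-band ubiquitin ligases were detected, led by the small heat shock protein gene Hspb8 with 251 ± 20.9 CPM per kilobase and the ubiquitin ligase gene Trim54 with 159 ± 21.5, and 2 were higher in replicate 1 and 0 in replicate 2. The median log2 ratio of replicate 1 over replicate 2 was 0.38 for the M-band partners, 0.56 for the thick filament genes and 0.34 for the chaperones and ligases, beside 0.26 for all genes.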

How the data were processed

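Long-read RNA libraries of gastrocnemius (1 group, 2 replicates) were used as deposited. The deposited tables hold a whole-number count of reads for each transcript model of a library, with its exons in a matching annotation, on mm10 with GENCODE M21 per the library descriptions. The attribute names in the files are those of TALON. The sources used here do not give the aligner or the read correction. ERCC spike-in reads were set aside, and CPM are counts per 1000000 remaining reads. The labels also name other spike-ins, not analysed here. Models were joined across libraries by gene, strand and chain of introns, because the same chain can carry another class in each library. The length and exon columns, other measures deposited per model, were used for levels per kilobase and exon inclusion.

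With 1 group no condition can be compared. Counts of the libraries were set against each other with two-sided Fisher's exact tests (chi-square tests for more than 2 models), with Benjamini-Hochberg adjustment over the whole table and a threshold of 0.05. The minimum was 10 reads in all for gene levels, 50 complete-model reads in each library for make-up (models under 10 reads pooled), 20 informative reads in each library for exons and 20 reads in each library for complete-model shares. Shares carry Clopper-Pearson 95% intervals. The tests were run on simulated data with known changes before use. TMM factors came from edgeR 4.0.16 in R 4.3.3. Python 3.11.15, scipy 1.17.1 and pandas 2.3.3 were used. The text names all 7 genes, models with at least 5% of a gene's reads in either library, cassette exons included in 5 to 95% of at least 20 reads, the EH exon, and at most 4 genes of each list. The genes and lists were chosen with earlier results of these data known.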

Additional observations from a re-analysis of the deposited data

Results flagged for a closer look

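Reads on models antisense to the genes described lie outside the measurements above, and some were above the limit of 3 reads that a count of 0 allows. Over Mybpc1 there were 7 antisense reads in replicate 1 and 5 in replicate 2. Over Myom1 there were 9 in replicate 1 and 4 in replicate 2. Over Myom2 there were 4 in replicate 1 and 9 in replicate 2. The other genes had at most 2 antisense reads in either library.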

How the results depend on the processing

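The Mybpc2 share of myosin-binding protein C reads was 87.2% and became 96.8% with annotated models alone. The Myom2 share of myomesin reads was 62.5% and became 71.3% with annotated models alone, 71.9% with complete models alone, 56.2% without genomic-class models and 63.8% per kilobase. The count of genes that differ in level was 1070 and became 563 with totals of genes of like length, and the count of genes that differ in make-up was 22 and became 74 with all spliced models joined. The log2 ratio of replicate 1 over replicate 2 turned negative with totals of like length for Myom1 (-0.20), Myom2 (-0.35) and Mybph (-0.0532), with TMM scaling for Myom2 (-0.0905) and Mybph (-0.145), and with replicate 1 thinned to replicate 2 for Mybph (-0.0458). The cause was not tested. Leaving out genomic-class models, an alternative chosen after seeing the data, gave 174 genes that differ in complete-model share against 284, and ended the call for Myom2. For Myom2 it takes out the reads of replicate 2 that lie within the last exon. Of the other values for single genes and exons, 142 counted as unchanged, 12 moved by more than the SD, and 7 passed the threshold only in the alternative. Unchanged means the same call, and direction where there is one, for a test. For a level or share it means a move within the SD of the 2 libraries. The 142 include levels and shares with a library left out. These cannot move by more than that SD, so they are no check. A changed minimum of reads leaves a gene's own reads as they were, so only the adjustment over the table can change its call. The count of exons that differ in inclusion was 6 in each alternative. Leaving out a library leaves no test between libraries. No paired analysis was possible because there is 1 group. Depth limits the rare forms most: Myom3, the EH exon and the antisense models rest on few reads.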
